A study of Saccharomyces cerevisiae with 10 samples.

Results

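The 10 genes described here encode the enzymes that make and break down glycogen and trehalose in budding yeast, Saccharomyces cerevisiae. They were chosen by name: 6 glycogen genes, GLG1, GSY1, GSY2, GLC3, GPH1 and GDB1, and 4 trehalose genes, TPS1, TPS2, TSL1 and NTH1. Each has its own row in all 9 of the deposited comparisons, among 6816 rows that name a single gene, and all 10 passed the low-value filter of 5 FPKM in 1 of the 2 libraries in every one of them. FPKM is a fragment count divided by transcript length and by sequencing depth, so it is a level per length.

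Glycogen is a branched glucose polymer and trehalose a disaccharide of glucose, and yeast stores both as growth slows or stress sets in. Both pathways start from UDP-glucose. Their genes are textbook targets of glucose repression and of the stress activators Msn2 and Msn4, which bind the stress response element, a short motif with the core AGGGG. RSC, which yeast cannot live without, remodels chromatin by sliding and evicting nucleosomes, much of it at promoters.

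Polyadenylated RNA was sequenced from 10 cultures of S288C background, all segregants from tetrad dissection of rsc heterozygotes, to compare rsc mutants with wild type (WT). Experiment 1 held WT and strains lacking 1 RSC subunit gene each (htl1Δ, npl6Δ, rsc1Δ, rsc2Δ and rtt102Δ), in logarithmic phase in YPD, a rich glucose medium, with 10 generations given in the titles. Experiment 2 held WT and htl1Δ strains that both carry GALpr-HTL1, taken here as HTL1 behind a galactose promoter. After saturation in YPGR, read here as a medium of galactose and raffinose, they went through 10 generations of logarithmic growth in YPGR or in YPD. There was 1 library for each combination, hence no replicate error and no test, and every value describes these libraries. In such bulk cultures a lower level in all cells and in a share of the cells cannot be told apart.

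The deleted genes were at 2.04 FPKM or less in their own libraries of experiment 1, but 1 library of experiment 2 went against its label. The library labelled htl1Δ in YPD held the a-cell receptor gene STE2 at 595 FPKM, MET17 at 150 FPKM, LYS2 at 32.7 FPKM and HTL1 at 240 FPKM. Its labelled partner, htl1Δ in YPGR, held STE2 at 6.50 FPKM, MET17 at 0, LYS2 at 0.107 FPKM and the alpha-cell receptor gene STE3 at 167 FPKM. These differ as strains of different mating type and marker genes do, so both comparisons with that library are between libraries and not between media or HTL1 states of 1 strain. In experiment 1, WT and npl6Δ held alpha-type levels of STE3 (439 and 287 FPKM) and the 4 other deletions a-type levels of STE2 (352 to 748 FPKM). Depth was about 10400000 to 14500000 fragments per library on loci over 300 bp, estimated from the steps between low values. At that depth the 10 genes stood on about 241 fragments (GLG1 in htl1Δ of experiment 1) to 13213 fragments (GLC3 in WT in YPGR).

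The sequences before the start codons of 4 of the genes are shown. These were picked among genes with matches to AGGGG, which is CCCCT on the other strand, and do not span the full range of responses. Each run is 300 bases of the RefSeq R64 genome, 5′ to 3′ on the coding strand, with the matches in capitals. The windows of GSY2, GLC3 and TSL1 end at the base before the start codon. For GSY1 the window runs from 500 to 201 bases before it, since its nearest 300 bases hold no match. They lie at chrVI:176592-176891 on the minus strand for GSY1, and on the plus strand at chrXII:660416-660715 for GSY2, chrV:132820-133119 for GLC3 and chrXIII:70324-70623 for TSL1.
GSY1: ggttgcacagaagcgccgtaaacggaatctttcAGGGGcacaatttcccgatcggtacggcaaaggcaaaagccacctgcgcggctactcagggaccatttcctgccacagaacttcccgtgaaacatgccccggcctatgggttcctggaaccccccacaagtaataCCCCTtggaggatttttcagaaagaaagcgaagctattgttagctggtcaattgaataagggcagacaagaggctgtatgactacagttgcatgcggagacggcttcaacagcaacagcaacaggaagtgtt
GSY2: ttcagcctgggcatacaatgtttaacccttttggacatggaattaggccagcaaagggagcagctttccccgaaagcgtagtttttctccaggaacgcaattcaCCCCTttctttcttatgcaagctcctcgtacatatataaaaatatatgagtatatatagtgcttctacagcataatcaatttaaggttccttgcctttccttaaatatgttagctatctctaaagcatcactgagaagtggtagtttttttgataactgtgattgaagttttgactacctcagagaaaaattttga
GLC3: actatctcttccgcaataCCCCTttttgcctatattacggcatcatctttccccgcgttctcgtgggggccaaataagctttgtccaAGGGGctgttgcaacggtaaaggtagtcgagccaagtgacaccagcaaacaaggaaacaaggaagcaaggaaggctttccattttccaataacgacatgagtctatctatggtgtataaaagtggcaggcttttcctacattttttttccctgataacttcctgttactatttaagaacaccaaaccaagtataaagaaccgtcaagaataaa
TSL1: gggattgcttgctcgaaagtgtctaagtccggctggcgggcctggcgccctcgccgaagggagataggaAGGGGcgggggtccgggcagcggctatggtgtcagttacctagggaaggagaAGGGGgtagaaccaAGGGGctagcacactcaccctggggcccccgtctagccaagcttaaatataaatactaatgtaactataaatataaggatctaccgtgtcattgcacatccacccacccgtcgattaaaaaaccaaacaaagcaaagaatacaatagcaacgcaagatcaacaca

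Within 300 bases of the start codon, AGGGG on either strand was found before 6 of the 10 genes, with 11 matches, and before 22.2% of the 6001 gene windows of the genome. TSL1 and TPS1 held 3 matches each, GLC3 held 2, and GSY2, GDB1 and NTH1 held 1 each. GSY1, GLG1, GPH1 and TPS2 held none in that window. Within 600 bases the motif was found before 9 of the 10 genes, with 30 matches, against 39.7% of 5999 windows. There GSY1 held matches 467 and 332 bases before its start codon, and GLG1 still held none. CGCGC, the core of the motif of the RSC subunit Rsc3, was found within 300 bases of NTH1 alone among the 10, against 12.0% of windows, and within 600 bases of 4 of the 10, against 22.3%. TATAAA was found within 300 bases of 6 of the 10, against 48.2% of windows. A match is a description of the letters, not a bound site.

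**Figure D1:**
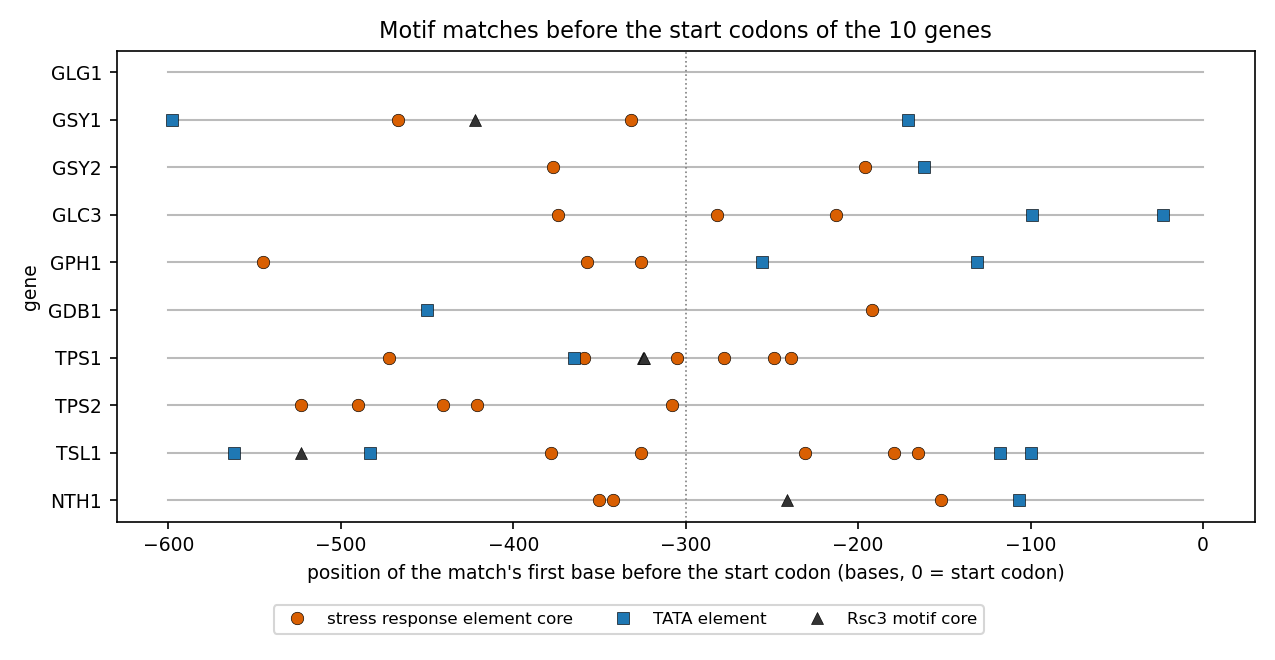
Positions of motif matches in the 600 bases before the start codon of each of the 10 genes. The horizontal axis is the distance in bases of the match's first base, symbols mark the 3 motifs, and the dotted line marks 300 bases. AGGGG matches lie before every gene except GLG1.

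Each of the 10 genes was at its highest in the 2 YPGR libraries. Over all 10 libraries the highest level was 30.5 times the lowest for GPH1 and 22.9 times for GLC3, but 3.13 times for TPS1 and 4.01 times for NTH1. Levels are on 1 scale per experiment, and the experiments were scaled separately, so a level set across them is approximate. Within experiment 1 alone GSY1 had the widest range, 6.25 times, and GDB1 the narrowest, 1.49 times. TPS1 was the most abundant of the 10 transcripts in every library, at 214 to 669 FPKM, and GDB1 was the least abundant in every library, at 6.47 to 67.8 FPKM.

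**Figure D2:**
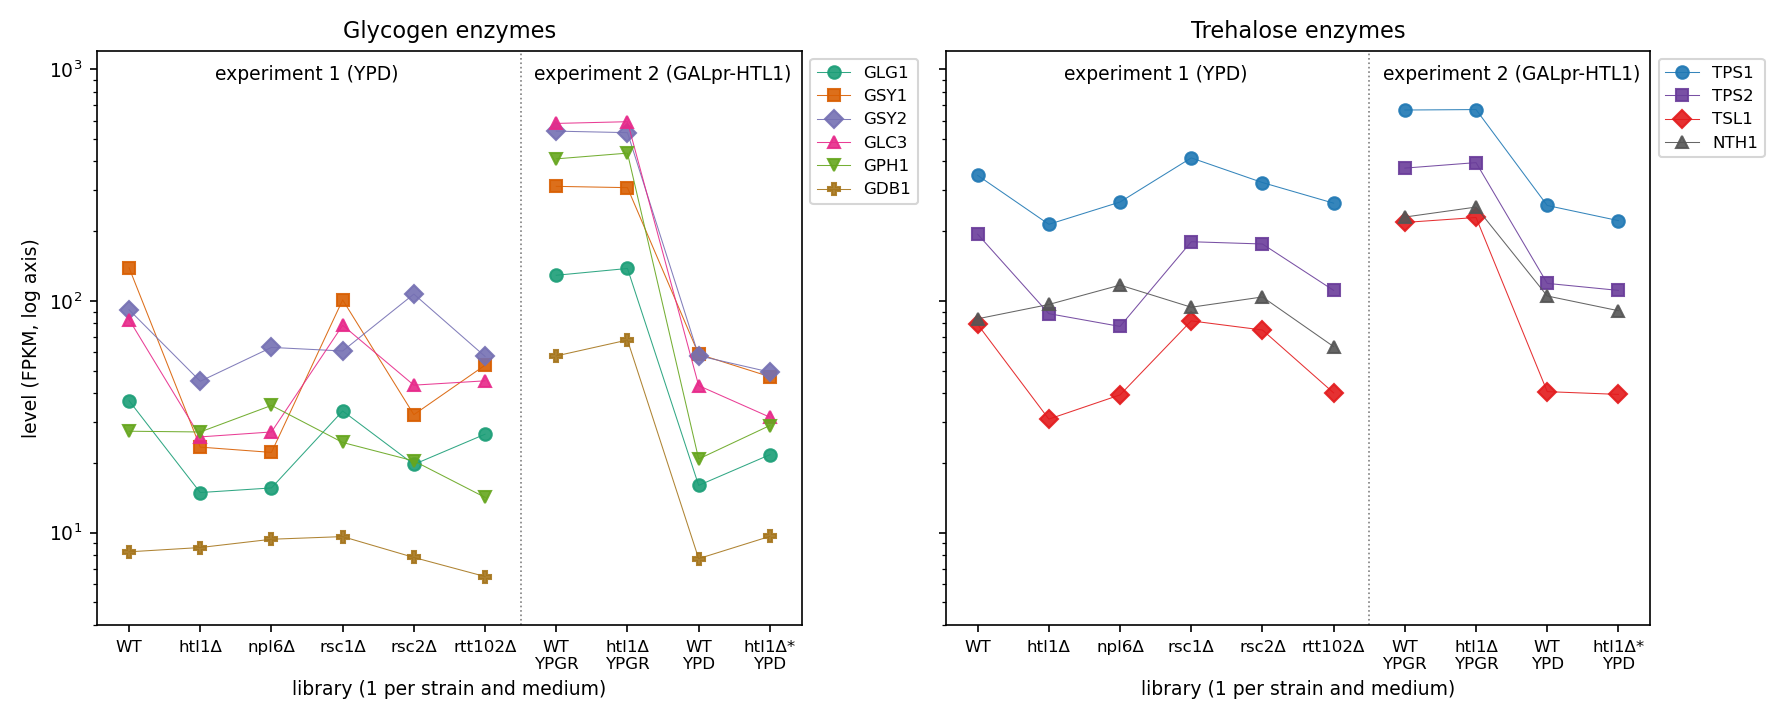
Level of each of the 10 genes (FPKM, log axis) in the 10 libraries, with 1 library per strain and medium; lines only join the points of a gene. The asterisk marks the library labelled htl1Δ in YPD, which goes against its label, and the dotted line separates the experiments, scaled apart. Every gene is highest in the 2 YPGR libraries.

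The question of experiment 1 was how the loss of single RSC subunits alters transcripts. GSY1 (YFR015C, chromosome VI, 174265 to 176391, sacCer3), 1 of the 2 glycogen synthases, which extend the chain from UDP-glucose, was lower in 4 of the 5 deletions by at least 2-fold. Its level was 139 FPKM in WT, 101 FPKM in rsc1Δ, 52.8 FPKM in rtt102Δ, 32.3 FPKM in rsc2Δ, 23.4 FPKM in htl1Δ and 22.2 FPKM in npl6Δ. The last 3 libraries lie close together and far below WT and rsc1Δ. The log2 ratio to WT was -2.59 in npl6Δ, -2.52 in htl1Δ, -2.07 in rsc2Δ, -1.37 in rtt102Δ and -0.45 in rsc1Δ. In the authors' deposited table GSY1 was called significant in these 4 deletions, with q-values of 0.0150 in npl6Δ, 0.0132 in htl1Δ, 0.0132 in rsc2Δ and 0.0116 in rtt102Δ, and not in rsc1Δ (q = 0.999). It was the 1 gene of the 10 that the authors called in any table. That call compares 2 libraries, and all 5 comparisons share the same WT library, so a high GSY1 value in that culture would enter all of them.

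That WT value can be set beside a second WT culture. WT carrying GALpr-HTL1 in YPD held GSY1 at 58.9 FPKM against 139 FPKM in WT of experiment 1. Across these separately scaled tables, lower levels were found in the second culture for 9 of the 10 genes, with a median log2 ratio of -0.68, while all 5886 genes compared had a median of 0.11 and 5th to 95th percentiles of -0.48 to 0.66. GLC3 was at 43.1 FPKM against 83.1, GLG1 at 16.0 against 37.1, TSL1 at 40.6 against 79.2 and TPS2 at 119 against 194 FPKM. The median log2 ratio of rtt102Δ to WT over the same 10 genes was -0.73. Strain construction, culture history and table scaling also differ between the 2 WT cultures and cannot be told apart. In the second culture HTL1 was at 577 FPKM against 286, URA3 at 198 against 0 and LYS2 at 0 against 27.3 FPKM. GSY1 in npl6Δ, htl1Δ and rsc2Δ lay below both WT values, and in rtt102Δ, at 52.8 FPKM, just below the lower one. The rsc2Δ level, 32.3 FPKM, was nearer to the lower WT value than the 2 WT values were to each other.

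GSY2 (YLR258W, chromosome XII, 660716 to 662833), the paralog of GSY1 and known as the main synthase of stationary cells, did not follow it. It was at 91.6 FPKM in WT, 107 in rsc2Δ, 63.0 in npl6Δ, 60.8 in rsc1Δ, 57.6 in rtt102Δ and 45.0 FPKM in htl1Δ. The rsc2Δ library was the highest of the 6 for GSY2 and among the 3 lowest for GSY1. Its log2 ratio passed 2-fold in htl1Δ alone, at -1.01, just past the limit, and was 0.23 in rsc2Δ. With a pseudocount of 10 FPKM it was -0.89 in htl1Δ and missed the limit. The level of GSY1 over that of GSY2 was 1.51 in WT and 1.66 in rsc1Δ, 0.918 in rtt102Δ, 0.519 in htl1Δ, 0.352 in npl6Δ and 0.301 in rsc2Δ. In the second WT culture in YPD it was 1.02. The 2 proteins have 708 and 705 residues and are 82.0% identical over 704 aligned positions, but their coding sequences share 0 stretches of 50 bases.

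**Figure D3:**
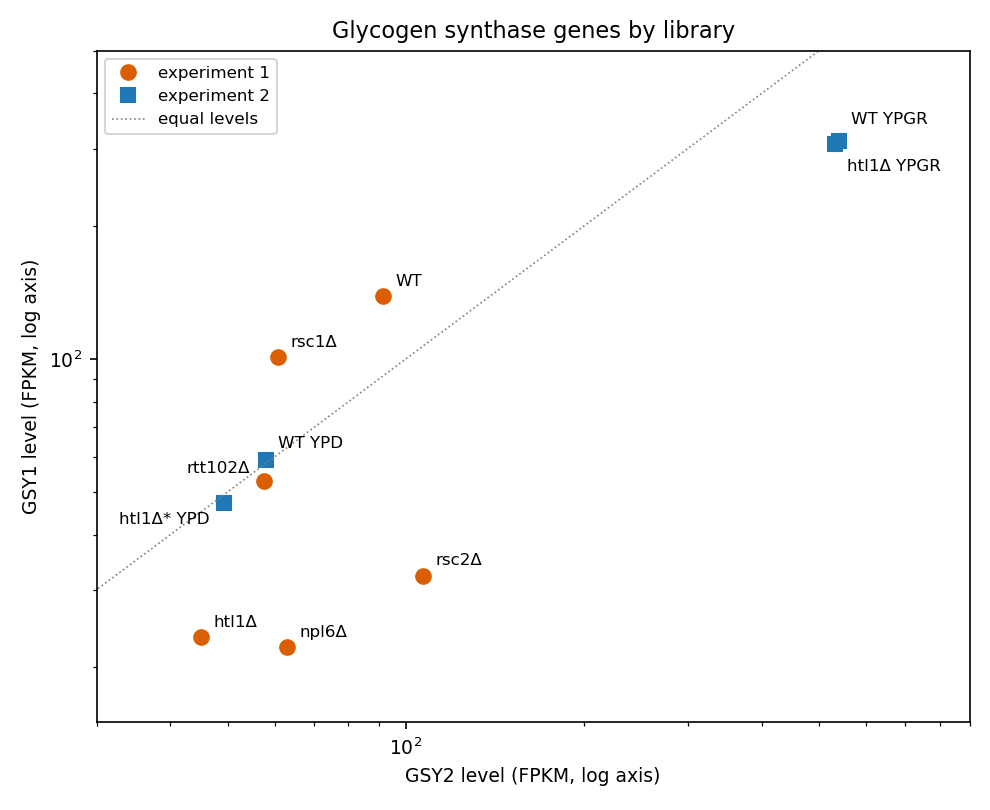
GSY1 level against GSY2 level (FPKM, both log axes) in the 10 libraries, with circles for experiment 1 and squares for experiment 2; the dotted line marks equal levels and the asterisk the library labelled htl1Δ in YPD. The rsc2Δ, npl6Δ and htl1Δ libraries lie well below the line, while WT and rsc1Δ lie above it.

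GLC3 (YEL011W, chromosome V, 133120 to 135234), the branching enzyme, and GLG1 (YKR058W, chromosome XI, 552770 to 554620), a glycogenin that primes new chains, ranked the libraries of experiment 1 almost as GSY1 did. GLC3 was at 83.1 FPKM in WT, 78.5 in rsc1Δ, 45.2 in rtt102Δ, 43.3 in rsc2Δ, 27.2 in npl6Δ and 25.9 FPKM in htl1Δ. GLG1 was at 37.1 FPKM in WT, 33.5 in rsc1Δ, 26.6 in rtt102Δ, 19.7 in rsc2Δ, 15.6 in npl6Δ and 14.9 FPKM in htl1Δ. Both genes passed 2-fold lower in htl1Δ and npl6Δ only, with log2 ratios of -1.65 and -1.57 for GLC3 and -1.26 and -1.20 for GLG1. With a pseudocount of 10 FPKM GLG1 missed 2-fold in both, at -0.93 and -0.89, and GLC3 kept it. In rsc2Δ their log2 ratios were -0.92 and -0.88. Across separately scaled tables, the second WT culture in YPD held GLG1 at 16.0 FPKM, close to its htl1Δ and npl6Δ levels. That culture held GLC3 at 43.1 FPKM, close to its rsc2Δ level. The smallest q-value in the authors' deposited table was 0.126 for GLC3, in htl1Δ, and 0.451 for GLG1, also in htl1Δ. As a description over the 6 libraries, which share a batch of tables and 1 WT scale, Pearson's r of log2(level + 1) with GSY1 was 0.99 for GLG1 and 0.97 for GLC3, against 0.32 for GSY2.

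The glycogen-degrading genes stood apart from the synthetic ones in htl1Δ and npl6Δ, but not in every deletion. GPH1 (YPR160W, chromosome XVI, 861306 to 864014), glycogen phosphorylase, which frees glucose 1-phosphate, was at 27.4 FPKM in WT, 35.4 in npl6Δ, 27.2 in htl1Δ, 24.5 in rsc1Δ, 20.4 in rsc2Δ and 14.2 FPKM in rtt102Δ. The rtt102Δ library was the lowest for GPH1, with a log2 ratio of -0.90, while npl6Δ and htl1Δ, the lowest for GSY1, had 0.36 and -0.01. In rtt102Δ the ratios of the synthetic genes GLC3, GSY2 and GLG1 were -0.86, -0.66 and -0.46, and only that of GSY1, -1.37, lay below GPH1. GDB1 (YPR184W, chromosome XVI, 902044 to 906654), the debranching enzyme, was at 8.27 FPKM in WT and 6.47 to 9.62 FPKM in the deletions. No GDB1 ratio to WT went beyond -0.31 or 0.20.

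Trehalose is made by a complex in which Tps1 joins UDP-glucose and glucose 6-phosphate, Tps2 removes the phosphate, and Tsl1 is a regulatory subunit. TPS2 (YDR074W, chromosome IV, 593893 to 596583) was at 194 FPKM in WT, 180 in rsc1Δ, 176 in rsc2Δ, 111 in rtt102Δ, 88.1 in htl1Δ and 77.6 FPKM in npl6Δ. TSL1 (YML100W, chromosome XIII, 70624 to 73920) was at 79.2 FPKM in WT, 82.0 in rsc1Δ, 74.9 in rsc2Δ, 40.1 in rtt102Δ, 39.3 in npl6Δ and 30.9 FPKM in htl1Δ. For both genes rsc1Δ and rsc2Δ lay with WT and the other 3 deletions lay apart and lower, unlike GSY1, for which rsc2Δ lay with the low group.

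TPS2 passed 2-fold lower in htl1Δ and npl6Δ, at -1.13 and -1.31, and TSL1 in htl1Δ, at -1.33, with -0.99 in npl6Δ and -0.97 in rtt102Δ just short of the limit. TPS1 (YBR126C, chromosome II, 488905 to 490392) was at 348 FPKM in WT, 414 in rsc1Δ, 324 in rsc2Δ, 267 in npl6Δ, 264 in rtt102Δ and 214 FPKM in htl1Δ. Its order matched that of TSL1 at both ends but its log2 ratios stayed between -0.70 and 0.25. NTH1 (YDR001C, chromosome IV, 450220 to 452475), the neutral trehalase, which splits trehalose into glucose, was at 83.7 FPKM in WT and highest in npl6Δ, at 117 FPKM. It was lower than WT in rtt102Δ alone, at 63.5 FPKM, and its log2 ratios ran from -0.39 to 0.48.

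Counted per deletion, 6 of the 10 genes were at least 2-fold lower than WT in htl1Δ, where 2.86% of 6044 measured genes were, and none was 2-fold higher, where 3.89% of all genes were. In npl6Δ 4 of the 10 were 2-fold lower, against 3.22% of 6051 genes, and none higher, against 4.63%. With a pseudocount of 10 FPKM these counts of lower genes were 4 in htl1Δ and 3 in npl6Δ. In rsc2Δ 1 of the 10, GSY1, was lower, against 2.61% of 6047 genes, and none higher, against 3.74%. In rtt102Δ 1 of the 10, again GSY1, was lower, against 1.27% of 5988 genes, and none higher, against 1.17%. In rsc1Δ 0 of the 10 were lower, against 2.11% of 6019 genes, and 0 higher, against 2.04%. This is a rule of size and not a test. Each count uses the WT library of experiment 1, in which 9 of the 10 genes were higher than in the second WT culture in YPD. Across these separately scaled tables, the gaps of htl1Δ to that culture were narrower. GSY1 was at 23.4 FPKM against 58.9, GLC3 at 25.9 against 43.1 and GLG1 at 14.9 against 16.0. GSY2 was at 45.0 FPKM against 58.0, TSL1 at 30.9 against 40.6 and TPS2 at 88.1 against 119.

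The authors' deposited table called 1 of the 10 in htl1Δ (0.529% of all measured genes), npl6Δ (0.446%), rsc2Δ (0.447%) and rtt102Δ (0.501%) and 0 in rsc1Δ (0.515%). The median log2 ratio of the 10 genes was -1.07 in htl1Δ, -0.76 in npl6Δ, -0.73 in rtt102Δ, -0.12 in rsc2Δ and -0.09 in rsc1Δ, while the median of all genes lay between 0.00 and 0.01 in these 5 tables. In rtt102Δ all 10 genes were below 0. The 7 genes of synthesis were all lower than WT in htl1Δ, npl6Δ and rtt102Δ, with medians of -1.26, -1.20 and -0.80. The 3 genes of breakdown had medians of 0.06, 0.36 and -0.39 in the same 3 deletions. This split by textbook role was made after the values had been seen.

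**Figure D4:**
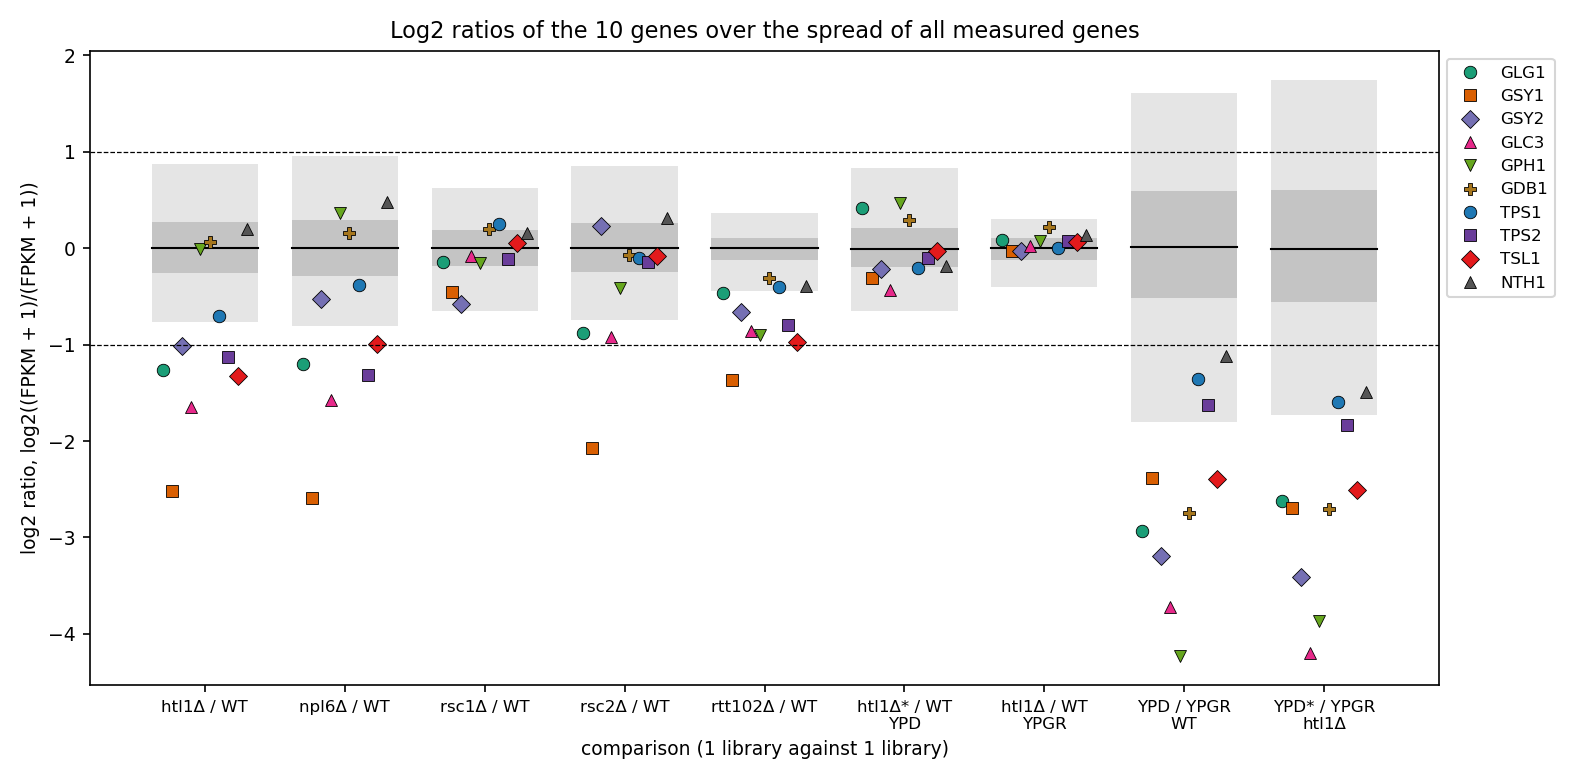
Log2 ratio of each of the 10 genes in the 9 comparisons, each of 1 library against 1 library, drawn over the 5th to 95th percentile (light band), the 25th to 75th percentile (dark band) and the median (line) of all measured genes; dashed lines mark 2-fold and the asterisk the library labelled htl1Δ in YPD. GSY1 is the lowest point in htl1Δ, npl6Δ, rsc2Δ and rtt102Δ. All 10 genes lie past 2-fold in both comparisons of a YPD with a YPGR library, of which only the WT pair compares media.

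Mating type and marker genes moved with the deletions, and their part in these values was not tested. The alpha-type npl6Δ library had the same mating type as WT and a GSY1 log2 ratio of -2.59, while the a-type rsc1Δ library had -0.45. MET17, a methionine synthesis gene often deleted as a strain marker, was at 151 FPKM in WT, 53.6 FPKM in rsc1Δ and 143 FPKM in rsc2Δ, and listed at 0 in rtt102Δ, npl6Δ and htl1Δ. That is the same split of the 6 libraries as for TPS2 and TSL1, and the 3 libraries at 0 are those with the lowest medians of the 10 genes. MET17 was also listed at 0 in the second WT culture in YPD, in which 9 of the 10 genes were lower than in WT of experiment 1. Whether MET17 state plays a part was not tested, and the libraries that follow differ also in medium, deletion or label. The library labelled htl1Δ in YPD had MET17 at 150 FPKM, with GSY1 at 47.1, GLC3 at 31.5, TSL1 at 39.5 and TPS2 at 111 FPKM. Both YPGR libraries had MET17 at 0 and the highest levels of all 10 genes. In rsc2Δ, with MET17 at 143 FPKM, GSY1 was at 32.3 FPKM. The level of LYS2, another marker, was 27.3 FPKM in WT, 46.4 in npl6Δ and 87.6 FPKM in rtt102Δ, and 0.109 FPKM or less in htl1Δ, rsc1Δ and rsc2Δ. The rtt102Δ library held the permease genes CAN1 and LYP1 at 0.132 and 0.0633 FPKM, against 72.6 and 160 FPKM in WT.

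Experiment 2 set the same 10 genes against galactose and raffinose. In WT carrying GALpr-HTL1 every one of the 10 was at least 2-fold lower in YPD than in YPGR, where 12.9% of 6080 measured genes were lower by that much and 13.4% higher. The largest gaps were in GPH1, at 410 FPKM in YPGR and 20.8 FPKM in YPD, and GLC3, at 583 and 43.1 FPKM. Within that table YPGR was 19.6 times YPD for GPH1 and 13.4 times for GLC3, with log2 ratios of -4.23 and -3.72. GSY2 followed, at 540 and 58.0 FPKM (-3.19), ahead of GSY1, at 312 and 58.9 FPKM (-2.38).

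GLG1, GDB1 and TSL1 had log2 ratios of -2.93, -2.75 and -2.39, and GDB1 was at 57.9 FPKM in YPGR against 7.73 FPKM in YPD. TPS2, TPS1 and NTH1 differed least, at -1.63, -1.36 and -1.12, with TPS1 at 666 and 258 FPKM. The order of size thus differed from that in the deletions: GPH1 and GDB1, which stayed near WT in htl1Δ and npl6Δ, were far lower in glucose. The authors' deposited table called 0 of the 10 significant here and 0.115% of all genes, with the lowest q-value of the 10 at 0.167, for GPH1.

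Between the library labelled htl1Δ in YPD and htl1Δ in YPGR all 10 genes were again at least 2-fold lower in YPD, against 13.1% of 6126 genes lower and 13.9% higher. The median log2 ratio of the 10 was -2.66, beside -2.57 in the WT pair. GLC3 had the lowest ratio, -4.20, and NTH1 the highest, -1.49. The authors' deposited table called 0 of the 10 here and 0.229% of all genes. Because that YPD library holds other mating-type and marker transcripts than its YPGR partner, strain and medium cannot be told apart in this pair; the WT pair, which does not use it, gave the same 10 genes past 2-fold. The YPGR pair differs from the YPD libraries also in the level of HTL1, at 2857 and 2687 FPKM in YPGR and 577 FPKM in WT in YPD.

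In YPGR the htl1Δ and WT libraries were nearly alike for these genes. GSY1 was at 308 FPKM in htl1Δ and 312 in WT, GSY2 at 532 and 540, GLC3 at 593 and 583, TPS1 at 669 and 666, and TSL1 at 229 and 218 FPKM. The log2 ratios of the 10 ran from -0.03 to 0.22, with GDB1 at the top. None was 2-fold different, where 0.957% of 6061 genes were lower and 0.726% higher, and the authors' deposited table called 0 of the 10 and 0% of all genes. HTL1 was expressed from the construct in both cultures, so this pair does not compare the presence and absence of its transcript. The spread of this pair is no measure of culture spread in YPD, where the 2 WT cultures differed far more, so the order of neighbouring levels is given without a limit that would separate them.

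In YPD the library labelled htl1Δ differed from WT by log2 ratios of -0.43 (GLC3) to 0.47 (GPH1), with GSY1 at 47.1 FPKM against 58.9 (-0.31) and GLG1 at 21.7 FPKM against 16.0 (0.42). None of the 10 passed 2-fold, where 2.06% of 6081 genes were lower and 3.78% higher, and the authors' deposited table called 0 of the 10 and 0.691% of all genes. In experiment 1 the GSY1 ratio of htl1Δ to WT was -2.52. The 2 values are given side by side; the library in YPD goes against its label, so they are not a repeat of 1 comparison.

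Other genes of the 2 pathways were read from a list of 11, of which 8 or 9 were measured. In htl1Δ of experiment 1, PGM2 (log2 ratio -1.41), the main phosphoglucomutase, and ATH1 (-1.03), the acid trehalase, were 2-fold lower, and in npl6Δ PGM2 alone (-1.06). In rsc1Δ, rsc2Δ and rtt102Δ none of the 8 was 2-fold different, with medians of -0.38, -0.37 and -0.21. In the WT pair of media 6 of 9 were 2-fold lower in YPD and none higher. These included PGM2, which is also a target of the galactose activator Gal4, at -3.49, SGA1, the sporulation glucoamylase, at -1.51, UGP1, which makes UDP-glucose, at -1.40, and ATH1 at -1.26. In the htl1Δ pair 5 of 9 were lower and none higher, and in the comparisons of htl1Δ with WT in experiment 2 none differed 2-fold.

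Of 20 regulators of these enzymes, 19 were measured. None differed 2-fold in the 5 deletions, with medians between -0.20 and 0.09. MSN2 was at 34.8 to 48.3 FPKM and MSN4 at 36.9 to 52.7 FPKM in the 6 libraries of experiment 1. In the WT pair of media 6 of 19 were 2-fold lower in YPD. They included DCS2 (-2.52), a stress-induced relative of the decapping scavenger Dcs1, GAC1 (-2.45), a subunit that directs the phosphatase Glc7 to glycogen synthase, IGD1 (-2.29), an inhibitor of Gdb1, and GIP2 (-1.89), another Glc7 partner. In the htl1Δ pair 7 of 19 were lower. PIG1, also a Glc7 partner, was higher in the library labelled htl1Δ in YPD than in WT (1.41), and no other regulator passed 2-fold in that comparison or, in YPGR, between htl1Δ and WT.

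General stress genes outside the pathways, 27 of 28 measured, did not move in 1 direction with the enzyme genes in the deletions. HSP12, a membrane-protecting small protein and a classic Msn2 and Msn4 target, was at 43.9 FPKM in WT and at 607 in htl1Δ, 2542 in npl6Δ, 554 in rsc1Δ, 1349 in rsc2Δ and 63.2 FPKM in rtt102Δ. It was thus high in the same htl1Δ, npl6Δ and rsc2Δ libraries in which GSY1 was low, and high in rsc1Δ as well. In htl1Δ 3 stress genes were 2-fold higher and 1 lower, and in npl6Δ 6 were higher and 2 lower. The lower ones in npl6Δ were the chaperone genes HSP104 (-1.75) and HSP42 (-1.65).

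In rsc1Δ 6 stress genes were higher and none lower, in rsc2Δ 9 and none, and in rtt102Δ none and 1. Their medians were 0.12 in htl1Δ, 0.06 in npl6Δ, 0.22 in rsc1Δ, 0.48 in rsc2Δ and -0.30 in rtt102Δ, beside the enzyme medians of -1.07, -0.76, -0.09, -0.12 and -0.73. In rtt102Δ both medians lay below 0, as did all 10 enzyme genes and 21 of the 27 stress genes. In the WT pair of media 19 of 27 stress genes were 2-fold lower in YPD and none higher, with a median of -1.90. The largest gap was in GCY1 (-5.30), which, like PGM2, belongs to the galactose-regulated genes. In the htl1Δ pair 15 stress genes were lower and 4 higher. In the library labelled htl1Δ in YPD 7 of 27 were 2-fold higher than in WT, led by HSP12 (2.99), and in YPGR HSP12 alone was 2-fold lower (-1.07).

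**Figure D5:**
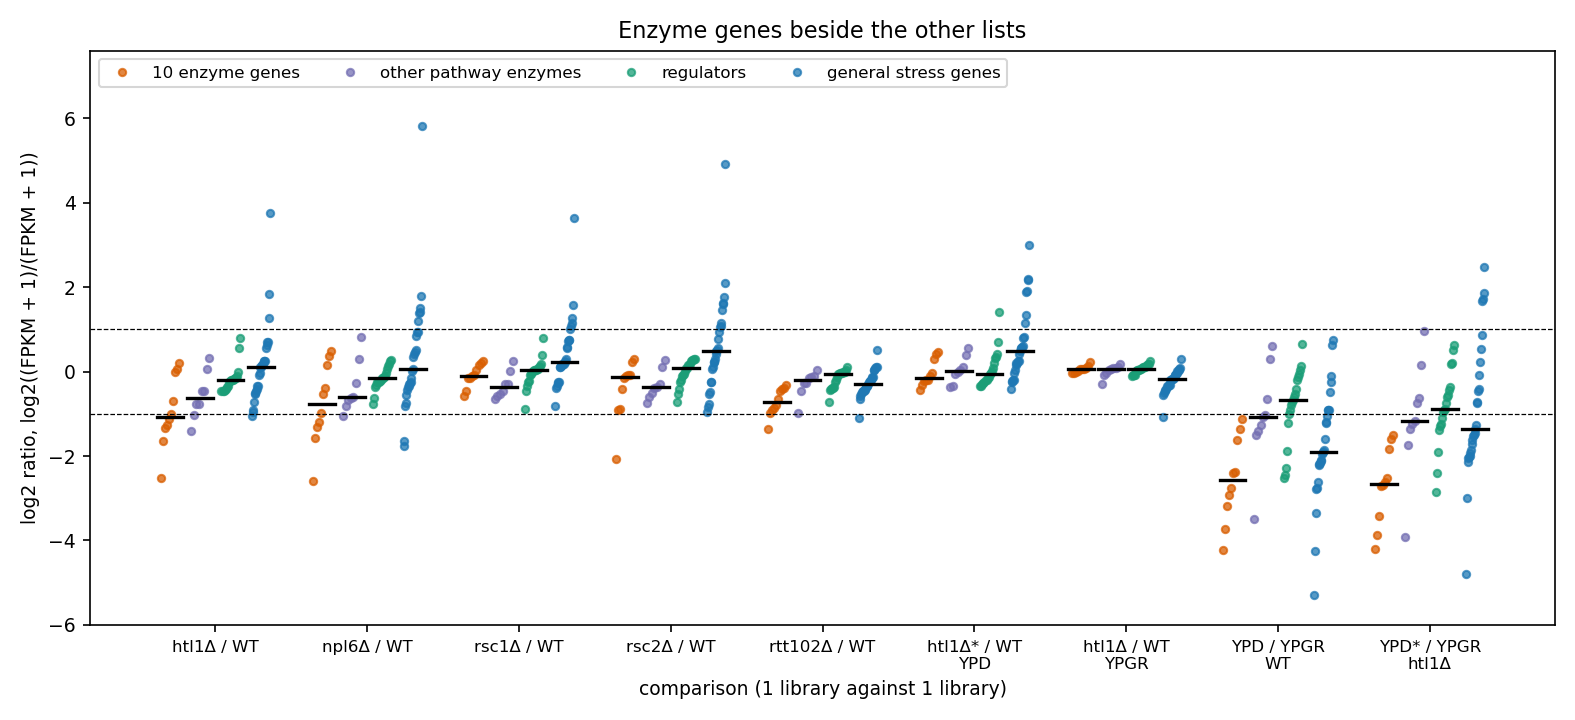
Log2 ratios of the enzyme genes and of the 3 other lists in the 9 comparisons, 1 point per measured gene, with a black bar at each list's median; the asterisk marks the library labelled htl1Δ in YPD. In the deletions the enzyme genes and the stress genes have different medians, such as -1.07 and 0.12 in htl1Δ. In both comparisons of a YPD with a YPGR library both lists lie mostly below 0.

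The genes whose levels were most like those of GSY1 over the 10 libraries, among 5556 genes, were TDA10 (r = 0.981), AIM17 (0.975), INP1 (0.971), HOS3 (0.971) and AHC1 (0.968). AIM17 was at 191 FPKM in WT of experiment 1 and at 61.7 to 68.9 FPKM in rsc2Δ, npl6Δ and htl1Δ. Those most like GSY2 were UBX2 (0.991), PRB1 (0.989), MCR1 (0.989), PMC1 (0.988) and PGM2 (0.988), and the lists share no gene. These r values are descriptions over 10 libraries, of which the 2 YPGR ones carry most of the range, and the libraries of an experiment share a scale.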

How the data were processed

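Each table holds 2 of 10 single libraries of polyadenylated RNA. Per the submitters' processing notes, TopHat, Cufflinks and Cuffdiff were used with sacCer3; neither tool versions nor strandedness are stated in the sources used here. The deposited values are FPKM, scaled by the authors' Cuffdiff run within a table. The p-values and q-values are the authors' Cuffdiff results between 2 single libraries, as deposited, and are cited only as their calls. The authors' deposited log2 fold changes were not used.

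A gene counted as measured if its row named 1 gene, had status OK and reached 5 FPKM in either library. Each ratio is log2((FPKM + 1)/(FPKM + 1)) within a table, so those of low genes are understated, and an absolute log2 ratio of 1 or more was counted. Levels were put on 1 scale per experiment through shared libraries, which differed between tables by up to 5.62% before and 0.554% after. Depth is approximate: 77.5% to 84.3% of low values fell within 0.1 of whole fragments. All 10 genes have the same coordinates in RefSeq R64 (5354 of 5859 matched rows do); it gave names, windows and the protein alignment. Motifs were searched on both strands. The 10 genes were named throughout, with at most 4 genes per other list and comparison, largest ratio first among those at least 2-fold different, and the 5 genes most like GSY1 and GSY2 by Pearson's r among genes of at least 20 FPKM in 1 library; single genes given as levels (MSN2, MSN4, mating-type and marker genes) were added. Members and lists were chosen with earlier results of these data known. HXK1, GLK1, YAK1 and TKL2, in rows naming several genes, were not analysed. The ratio step, without a pseudocount, was tested on simulated data whose changes lay well past 2-fold, so calls near the limit were not covered. Python 3.11.15, pandas 2.3.3, NumPy 2.4.6 and matplotlib 3.10.9 were used.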

Additional observations from a re-analysis of the deposited data

How the results depend on the processing

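With 1 library per strain and medium, no replicate could be left out. No paired analysis was possible because each group has a single library. Pseudocounts of 0.1 or 10 FPKM, no filter or 20 FPKM, rows of any status and centred ratios left all 9 medians and all 9 counts of genes past 2-fold within 1.5 times, but some calls near the limit ended or began. With 10 FPKM the count went from 6 to 4 in htl1Δ (GLG1 -0.93 and GSY2 -0.89) and from 4 to 3 in npl6Δ (GLG1 -0.89), and with 0.1 FPKM to 5 in npl6Δ (TSL1). Joined with the authors' call, the counts of genes past 2-fold became 1 in htl1Δ, 1 in npl6Δ, 0 in the WT pair of media and 0 in the htl1Δ pair. A pseudocount of 10 FPKM moved the log2 ratio of GDB1 to -1.92 in the WT pair of media and -2.00 in the htl1Δ pair. It moved the log2 range over libraries to 4.20 for GPH1 and 2.24 for GDB1. The 600-base motif window, added after the data had been seen, gave 4 genes with CGCGC. Leaving out the library labelled htl1Δ in YPD could not change the 10 ranges, since it held neither the highest nor the lowest level of any gene. Depth limits GLG1 and GDB1 most, and the spread between cultures was not measured.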
